A study of Mus musculus with 28 samples.

Results

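Bulge stem cells of Alkbh5 cKO mice were compared with those of wild-type (WT) mice across all genes with enough reads. The comparison used 4 of the 28 samples of the series, taken by their labels: RNA-seq libraries of 2 WT mice and 2 cKO (conditional knockout) mice at postnatal day 69, 1 library per mouse. Hair follicle stem cells of the skin were collected with a flow cytometer and RNA was prepared with TRIzol. Each bulge library was made from 200.0 ng of total RNA by SHERRY2, a kit in which a transposase tags hybrids of RNA and cDNA directly. The Cre driver, the deleted part of Alkbh5, the sorting markers, strain background and littermate status are not given in the labels or files. What the WT mice share with the cKO mice, such as a floxed allele, is therefore not known from them. With 2 mice per genotype, the p-values below measure the spread between these 4 mice, and an exact permutation test of a single value could not go below 0.333.

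The bulge is the resting part of the hair follicle where long-lived stem cells are kept between growth phases (anagen), and it is held at rest (telogen) by signals such as BMP and released by signals such as Wnt. ALKBH5 is a nuclear demethylase that removes the methyl group of N6-methyladenosine (m6A), a mark that a methyltransferase complex sets on RNA and that reader proteins bind. The mark is known to affect splicing, export, translation and decay of RNA. The series asks about the passage from telogen to anagen.

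The 4 libraries held 14676168 to 21187283 reads in genes and 21171 to 22959 genes with a read. Xist and 4 genes of the Y chromosome showed WT mouse 2 to be male and the other mice to be female, so calls that depended on WT mouse 2 or on another single library are listed beside the genes they concern. The defining genes of bulge cells were present in every library, in CPM, reads scaled to a common library size with TMM factors. Krt15, a keratin of the bulge, had 8067 and 8316 CPM in WT and 4736 and 4905 CPM in cKO. Cd34, a surface protein of bulge cells, had 247 and 241 CPM in WT and 366 and 136 CPM in cKO. Of 20 bulge stem cell genes, 0 passed the test (edgeR; 4 at an unadjusted p under 0.05; 3 lower in DESeq2). The median of their levels lay at 0.13 in cKO mouse 1 and at -0.51 in cKO mouse 2, as a log2 difference from the WT mean. Bulge marker levels therefore differed between the cKO mice. Markers of other cells were present at different levels. Over the 4 libraries, the summed level of the marker list was 295 to 378 CPM for Schwann cells, 389 to 988 for sebocytes, 84.7 to 321 for Langerhans and dendritic cells, 79.0 to 189 for muscle and pericytes and 47.9 to 138 for fibroblasts. Some defining genes were at or near 0: Krt20 and Atoh1 of Merkel cells had 0 reads in every library, Cdh5 of endothelial cells had at most 0.767 CPM and Pdgfra of fibroblasts at most 0.711 CPM. In the Schwann cell list Sox10, S100b, Cdh19, Foxd3 and Ncam1 had too few reads to be tested, and 7 of its 12 genes were tested. Suprabasal cell genes were present at high levels, with Krt10 at 3269 and 3429.8 CPM in WT and 3358 and 3064 CPM in cKO. Of 12 tested, 11 were negative in cKO, with a median log2 fold change of -0.56. In edgeR 1 was called lower (8.33%, against 1.6% of all genes tested), and in DESeq2 3 were. The edgeR call was lost whenever 1 library was left out.

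Alkbh5 (ENSMUSG00000042650, chromosome 11, 60427207 to 60449338 as the deposited table gives positions, with no build named there) was nearly lost from the cKO libraries. Its level was 107 and 96.1 CPM in WT and 4.21 and 2.38 CPM in cKO. The groups were far apart, with a log2 fold change of -4.97 (SE 0.28, adjusted p = 0.000492, edgeR with Benjamini-Hochberg adjustment over 15672 genes). The call was kept without any 1 of the 4 libraries and in DESeq2. DESeq2 called 4.42% of the 26954 genes with a read, a wider set than edgeR tested. Reads that remained in cKO cannot be assigned to cells or exons from a count per gene. In bulk RNA, fewer cells of a type and less RNA per cell cannot be told apart, here or below. Genes beside a targeted allele can carry linked differences between strains, so the neighbours were counted. Within 5 Mb on each side, 111 genes were tested and 2 were called, 2410006H16Rik (log2 -1.26) and Aldh3a1, both lower. Aldh3a1, an aldehyde dehydrogenase of epithelia, had 284 and 292 CPM in WT and 161 and 180.4 CPM in cKO (log2 -0.75, adjusted p = 0.0439, edgeR). That share, 1.80%, lay near the 3.04% called among all genes. The promoter of Alkbh5 in the RefSeq annotation of GRCm38.p6 (chr11:60537433-60537682, plus strand, a position that differs from the one in the count table) is shown because it is the targeted gene and the called lower gene with the lowest p. It holds 1 CCAAT box, the element bound by the factor NF-Y, in capitals.
Alkbh5: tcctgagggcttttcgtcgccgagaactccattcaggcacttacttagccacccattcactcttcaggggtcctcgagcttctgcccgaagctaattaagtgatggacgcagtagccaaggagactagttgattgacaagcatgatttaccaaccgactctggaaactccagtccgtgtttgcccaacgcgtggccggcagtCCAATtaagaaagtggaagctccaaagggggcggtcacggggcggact Aldh3a1 was not called without WT mouse 1 (adjusted p = 0.0568, edgeR). 2410006H16Rik and Aldh3a1 were not called without WT mouse 2 (adjusted p from 0.0884 to 0.1, edgeR). Aldh3a1 was not called without cKO mouse 1 (adjusted p = 0.134, edgeR). Aldh3a1 was not called without cKO mouse 2 (adjusted p = 0.0501, edgeR).

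The edgeR test called 476 of 15672 genes at an adjusted p of 0.05 (3.04%). In cKO 225 of them were higher (1.44%) and 251 lower (1.6%). At an unadjusted p under 0.05 there were 2968 genes. The higher and lower genes were of different kinds. Higher genes started from a low level, with a median of 2.84 FPKM (a count scaled to exonic length and depth) in WT, and 25 of them had a WT mean under 1 CPM. Lower genes started from a median of 32.6 FPKM, against 4.63 FPKM over all genes tested. Among the 366 genes with a mean of at least 100 FPKM, 41 were lower and 2 higher, and their median log2 fold change was -0.50. A log2 fold change above 3 was found in 39 higher genes and one below -3 in 10 lower genes. In all 476 called genes the WT and cKO libraries did not overlap, and the same held for 50.9% of all genes tested, so this alone sets no gene apart. cKO mouse 2 lay farther from the WT mean than cKO mouse 1 in 170 of the higher and 188 of the lower genes. Without overlap between the groups, leaving out a library could not turn the sign of a call. The count of calls depended on the libraries. It was 218 without WT mouse 2 (72 higher and 146 lower), 464 without WT mouse 1, 1601 without cKO mouse 1 and 733 without cKO mouse 2, and the 476 genes kept their sign in each.

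**Figure D1:**
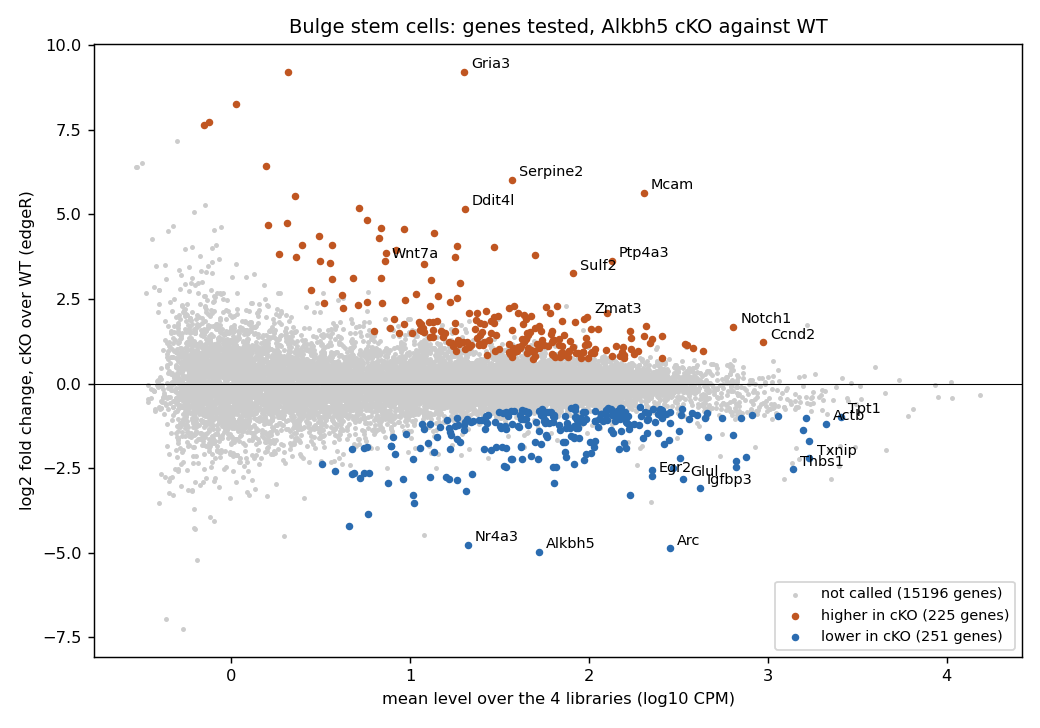
Log2 fold change of each gene tested (vertical axis, cKO over WT, edgeR) against its mean level over the 4 bulge libraries (horizontal axis, log10 CPM). Orange points are the 225 genes called higher, blue points the 251 called lower and grey points the genes not called. The orange points spread over low and middle levels, and at the right end, among the most abundant genes, the called points are nearly all blue.

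Longer genes tended to be higher and shorter genes lower. In the quintile of genes with the smallest exonic size (45 to 1949 bases) the median log2 fold change was -0.22, with 14 genes called higher and 81 lower. In the quintile with the largest size (7033 to 123179 bases) it was 0.12, with 89 higher and 20 lower. The WT mice also differed from each other along exonic size, with the shortest quintile at -0.08 in WT mouse 1 and 0.08 in WT mouse 2, while the cKO mice lay at -0.18 and -0.21. After the size trend of each library was taken out, a step added after the data were seen, 418 genes were called (206 higher and 212 lower), of which 376 were among the 476. Of the genes named here, Aldh3a1, Rad18, Hspb1, Cd83, Far2, Herpud1, Car12, Pola1, Mki67, Top2a, Brca2, Dusp14, Id3, Nqo1 and Gabarapl1 lost their call by it (adjusted p from 0.0514 to 0.0838, edgeR), as did the ribosomal genes given further on. The part of library preparation or RNA quality in the trend was not tested.

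**Figure D2:**
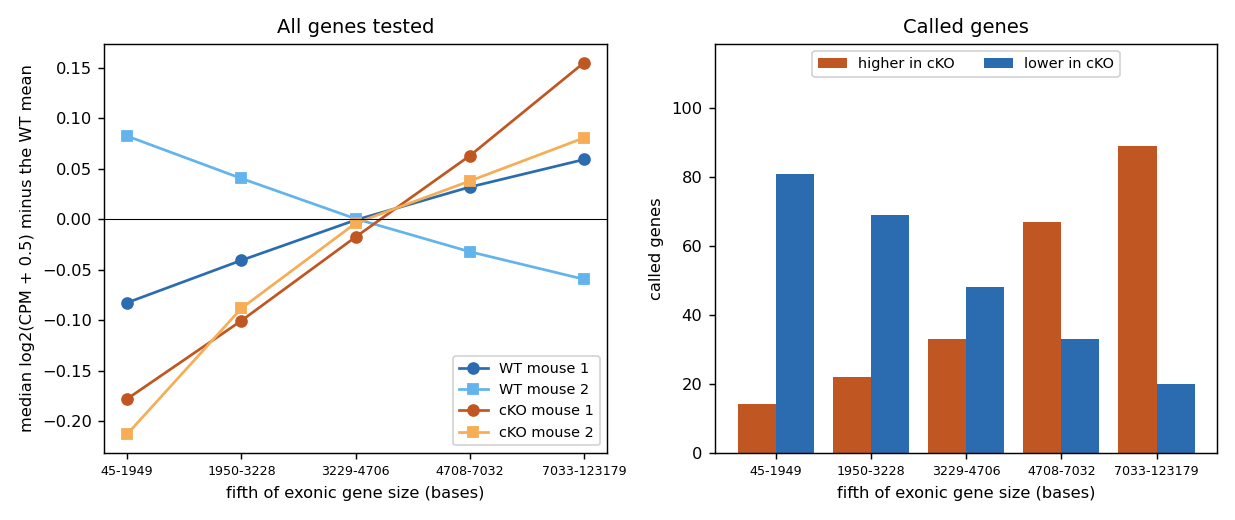
Left: the median level of the genes in each quintile of exonic gene size (horizontal axis, bases) for each library, as log2(CPM + 0.5) minus the WT mean. Right: the number of genes called higher (orange) and lower (blue) in each quintile. The lines of the cKO mice rise from -0.18 and -0.21 to 0.16 and 0.08, WT mouse 1 runs from -0.08 to 0.06, and the called genes pass from 81 lower and 14 higher to 20 lower and 89 higher.

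The higher genes with the lowest p are given first. Serpine2 (ENSMUSG00000026249), a secreted inhibitor of thrombin and plasminogen activators, had 1.23 and 0.996 CPM in WT and 77.5 and 68.9 CPM in cKO, a log2 fold change of 6.02 (SE 0.23, adjusted p = 0.000121, edgeR). The adhesion molecule Mcam (ENSMUSG00000032135) had 10.4 and 5.26 CPM in WT and 349 and 444 CPM in cKO (log2 5.64, SE 0.33, adjusted p = 0.000492, edgeR). Serpine2 rose from a trace and Mcam from a low level, and in each the cKO mice were close to one another compared with their distance from WT.
Ptp4a3 (ENSMUSG00000059895), a membrane-bound phosphatase, had 20.1 and 19.99 CPM in WT and 224 and 271 CPM in cKO (log2 3.62, SE 0.17, adjusted p = 0.000359, edgeR). Sulf2 (ENSMUSG00000006800), an enzyme that trims sulfate groups from heparan sulfate outside the cell, had 13.9 and 16.9 CPM in WT and 137 and 158 CPM in cKO (log2 3.26, SE 0.18, adjusted p = 0.000492, edgeR). In these genes WT levels were clear and even between the WT mice.
Cpt1c, a brain-type member of the carnitine palmitoyltransferases, had 6.75 and 6.69 CPM in WT and 78.4 and 109 CPM in cKO (log2 3.80, adjusted p = 0.000492, edgeR). Atg9b, a lipid scramblase of autophagy, had 4.40 and 2.28 CPM in WT and 57.8 and 53.4 CPM in cKO (log2 4.03, adjusted p = 0.0016, edgeR). Plod2, which hydroxylates lysines of collagen, had 1.28 and 1.07 CPM in WT and 25.3 and 26.5 CPM in cKO (log2 4.45, adjusted p = 0.00067, edgeR). None of the groups overlapped.
Further genes among the 20 higher ones with the lowest p were the adhesion gene Igsf9b (log2 4.07), Dglucy, which acts on D-glutamate (log2 3.73), the drug efflux pump Abcb1b (log2 1.90), the simple-epithelium keratin Krt7 (log2 3.07), the actin regulator Kank3 (log2 2.97) and the nuclear pore gene Aaas (log2 2.30), with adjusted p from 0.0016 (Dglucy and Igsf9b) to 0.00293 (Aaas) in edgeR. Krt7 had 2.66 and 2.92 CPM in WT and 23.2 and 23.6 CPM in cKO. Each of these genes was called again without any 1 of the 4 libraries and in DESeq2. By position in the table, Sulf2 lies opposite Ncoa3, Atg9b opposite Nos3, Kank3 opposite Rps28 and Mcam opposite Gm10687, which was called higher too. Whether strand was used in counting is not given in the labels or files, so reads of such pairs cannot be told apart.

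**Figure D3:**
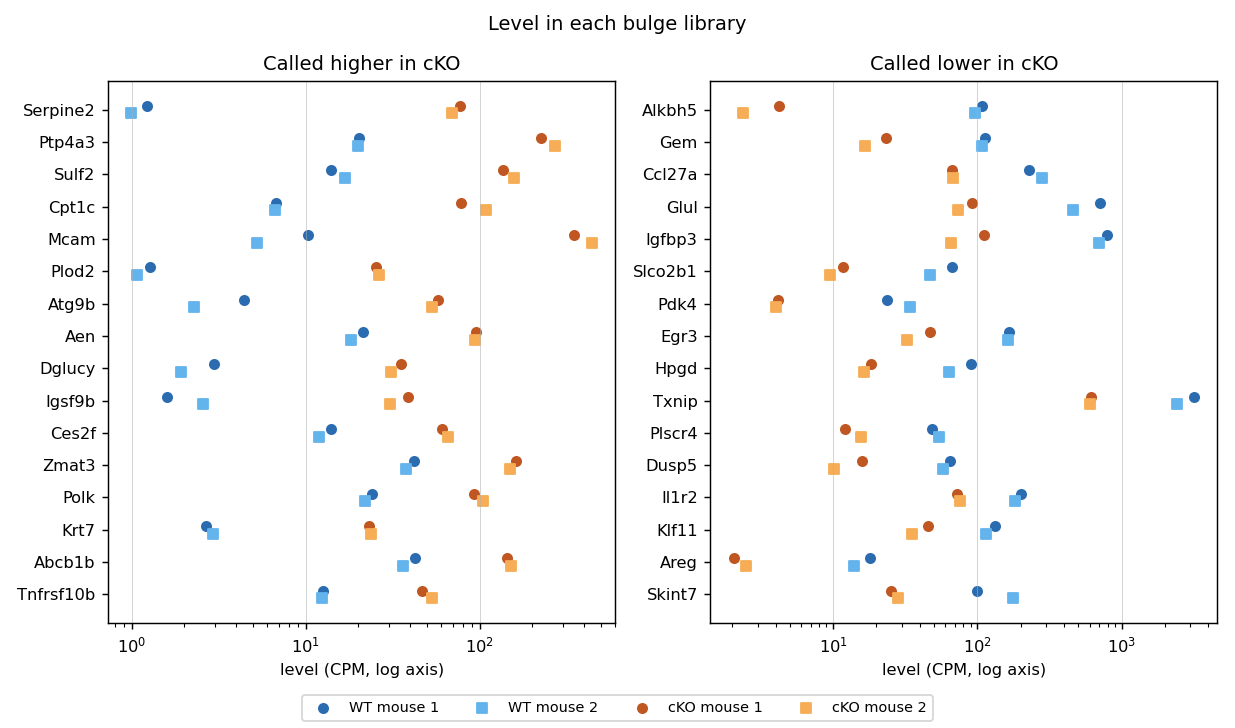
Level of 16 of the 20 named higher genes with the lowest p (left) and 16 of the 20 such lower genes (right) in each of the 4 bulge libraries, in CPM on a log axis, ordered by p. Dark and light blue marks are WT mice, brown and orange marks cKO mice. In every row shown the WT pair and the cKO pair are apart, from Serpine2 at 1.23 and 0.996 against 77.5 and 68.9 to Skint7 at 99.8 and 176 against 25.1 and 28.2.

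The promoter of Sulf2 (GRCm38.p6, chr2:166155286-166155535, minus strand) is shown as that of the higher gene with the lowest p whose window held a searched motif. Its 1 CCAAT box is in capitals.
Sulf2: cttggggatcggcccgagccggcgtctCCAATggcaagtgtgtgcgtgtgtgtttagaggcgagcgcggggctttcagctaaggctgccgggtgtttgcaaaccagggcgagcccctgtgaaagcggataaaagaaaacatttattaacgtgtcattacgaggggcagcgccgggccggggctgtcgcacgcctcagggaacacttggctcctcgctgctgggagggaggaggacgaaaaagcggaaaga
A CCAAT box on either strand (CCAAT or ATTGG) was present in 42.8% of the promoters of tested genes, in 48.0% of those of higher genes and in 48.1% of those of lower genes, counted over 300 bases from 250 before to 50 after the start, in at least 1 promoter of a gene. The searched element thus had a like share in both directions, near that of all genes tested.

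Several genes best known from neurons or cartilage were nearly silent in WT and had clear reads in cKO. The glutamate receptor subunit Gria3 had 0 and 2 reads in WT against 742 and 706 in cKO (adjusted p = 0.000492, edgeR). The splicing regulator Celf5 had 0.204 and 0.356 CPM in WT and 9.22 and 11.03 CPM in cKO (log2 5.19, adjusted p = 0.00305, edgeR), and the axon guidance factor Slit1 had 1.07 and 0.356 CPM in WT and 18.7 and 16.7 CPM in cKO (log2 4.55, adjusted p = 0.00424, edgeR). The groups did not overlap in these genes, though the WT reads were few.
The cartilage collagen Col2a1 had 0.511 and 0.569 CPM in WT and 11.6 and 14.6 CPM in cKO (log2 4.59, adjusted p = 0.00252, edgeR). Most members of the lists such genes belong to were not called. Of 28 axon guidance genes tested, 1 was called higher and 0 lower (3.57%), with a median log2 fold change of 0.05. Of 28 synaptic genes, 11 had enough reads to be tested, and 1 was called higher and 0 lower (9.09%). Of 22 ion channel genes 2 were higher and 0 lower (9.09%). Of all genes tested, 3.04% were called and 1.44% were called higher. Pde7b, a phosphodiesterase of cyclic AMP, had 0.511 and 0 CPM in WT and 6.44 and 5.42 CPM in cKO, and it was not called in DESeq2 (adjusted p = 0.11). Dhh, the hedgehog ligand of Schwann cells, was named after its values were seen: it had 0 reads in both WT libraries and 3.96 and 4.33 CPM in the cKO libraries. Of 7 Schwann cell markers tested 0 were called (edgeR; 2 at an unadjusted p under 0.05; 1 lower in DESeq2). Pde7b was not called without WT mouse 2 (adjusted p = 0.0565, edgeR).

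Carboxylesterases, which split ester bonds of lipids and drugs, were the gene family with the largest share of called members among families with at least 5 tested members and 3 called ones. Of 5 tested members, 3 were higher and 0 lower, against 1.44% of all genes higher. Ces2f had 13.95 and 11.9 CPM in WT and 61.1 and 66.01 CPM in cKO (log2 2.30, adjusted p = 0.00177, edgeR), Ces2e 2.30 and 1.42 CPM in WT and 18.1 and 25.7 CPM in cKO (log2 3.53, adjusted p = 0.00391, edgeR) and Ces2g 33.2 and 29.9 CPM in WT and 77.1 and 108 CPM in cKO (log2 1.55, adjusted p = 0.0111, edgeR). They are close copies of one another, so reads could be shared between them.

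Targets of the transcription factor p53, which answers DNA damage with arrest, repair or death, were the gene list with most higher members. Of 28 tested, 12 were called higher and 0 lower (42.9%, against 1.44% of all genes higher), 21 were positive, and the median log2 fold change was 0.62, against -0.01 over all genes. Igfbp3 and Sfn, known p53 targets that were called lower, were not members of this list and are given further on. The effectors differed in size. Aen, an exonuclease of apoptosis, had 21.5 and 18.1 CPM in WT and 95.7 and 94.3 CPM in cKO (log2 2.26, SE 0.17, adjusted p = 0.0016, edgeR). Zmat3, a zinc finger RNA-binding protein, had 41.8 and 37.6 CPM in WT and 162 and 150.1 CPM in cKO (log2 1.97, adjusted p = 0.00177, edgeR). Tnfrsf10b, a death receptor, had 12.5 and 12.4 CPM in WT and 46.5 and 53.03 CPM in cKO (log2 2.00, adjusted p = 0.00277, edgeR). In each of these the 2 mice of a genotype were close and the genotypes far apart.
Apaf1, the scaffold of the apoptosome, had 19.4 and 17.99 CPM in WT and 62.4 and 76.8 CPM in cKO (log2 1.89, adjusted p = 0.0033, edgeR). Ddit4l, an inhibitor of mTOR, had 1.69 and 0.356 CPM in WT and 37.1 and 41.4 CPM in cKO (log2 5.16, adjusted p = 0.00296, edgeR). The arrest gene Cdkn1a, already abundant in WT, had 272 and 223 CPM in WT and 493 and 533 CPM in cKO (log2 1.05, adjusted p = 0.0249, edgeR), and Mdm2, the ligase that removes p53, had 68.3 and 65.3 CPM in WT and 113 and 115 CPM in cKO (log2 0.77, adjusted p = 0.0345, edgeR).
Members that did not pass included the death genes Bax (log2 0.67), Fas (0.39), Bbc3 (0.49) and Pmaip1 (-0.38). The lowest members, also not called, were the antiproliferative gene Btg2, which is an immediate early gene too, with 2801 and 1774 CPM in WT and 761 and 143 CPM in cKO (log2 -2.34), Sesn1 (-0.95) and Perp (-0.62). These are abundant, and the summed level of the list was 8661 and 7469.9 CPM in WT and 6410.4 and 5856 CPM in cKO, so the list was higher by its count and median and lower by its sum. The cKO mice were alike here, with list medians of 0.60 and 0.74 above the WT mean. Without WT mouse 2 the list had 11 higher members and 1 lower, without cKO mouse 1 it had 14 and 2, without cKO mouse 2 12 and 2, and in DESeq2 14 and 2. Mdm2 was not called without WT mouse 1 (adjusted p = 0.0624, edgeR). Cdkn1a and Mdm2 were not called without WT mouse 2 (adjusted p from 0.0772 to 0.117, edgeR).

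Genes that copy and mend DNA were higher too, with a larger spread between the cKO mice. Of 20 DNA damage repair genes tested, 6 were called higher and 0 lower, all 20 were positive, and the median log2 fold change was 1.09. Of all genes tested 1.44% were called higher, the share against which the counts in this and the next lists are to be read. Brca2, a mediator of homologous recombination, had 13.4 and 14.2 CPM in WT and 28.1 and 30.01 CPM in cKO (log2 1.07, adjusted p = 0.029, edgeR). Rad54l, a motor protein of the same repair, had 5.06 and 5.19 CPM in WT and 14.5 and 20.4 CPM in cKO (log2 1.77, adjusted p = 0.023, edgeR). The cKO mice were close for Brca2, and the genotypes did not overlap in either gene.
Polk, a polymerase that copies past damaged bases and counted among the p53 targets here, stood out with 24.2 and 22.05 CPM in WT and 92.6 and 104 CPM in cKO (log2 2.09, SE 0.16, adjusted p = 0.00177, edgeR). Other genes of this bypass, named after their values were seen, were also higher, Rev1 with 30.7 and 24.6 CPM in WT and 81.6 and 79.9 CPM in cKO (log2 1.54, adjusted p = 0.00659, edgeR) and Rad18 with 11.04 and 10.03 CPM in WT and 19.99 and 27.9 CPM in cKO (log2 1.18, adjusted p = 0.047, edgeR).
Of 20 genes of one-carbon and nucleotide synthesis, 4 were higher (Rrm1, Rrm2, Tk1 and Cad) and 0 lower, with a median of 0.62. Rrm1, a subunit of ribonucleotide reductase, had 123 and 100.0 CPM in WT and 231 and 357 CPM in cKO (log2 1.40, adjusted p = 0.0254, edgeR). Of 21 genes of replication licensing, 2 were higher, the ligase Lig1 (log2 1.23) and the polymerase subunit Pola1 (1.17), and 0 lower, with all 21 positive and a median of 0.74. Of 22 spindle and cytokinesis genes, 2 were higher, Mki67 and Top2a, and 0 lower, again with all 22 positive and a median of 1.02. Mki67, which coats mitotic chromosomes, had 145 and 114 CPM in WT and 235 and 405 CPM in cKO (log2 1.30, adjusted p = 0.0465, edgeR), so cKO mouse 2 lay far above cKO mouse 1. The list median was 0.43 above the WT mean in cKO mouse 1 and 1.40 in cKO mouse 2. Calls in these lists depended on WT mouse 2, the male. Without it, 0 members of the repair, nucleotide, replication and spindle lists passed in edgeR, while their medians were 1.00, 0.50, 0.66 and 0.88.  Without cKO mouse 1, 21 of the 22 spindle genes were called. In DESeq2, 14 were called. Rad54l, Rrm2, Mki67, Tk1, Brca2, Top2a, Rad18 and Pola1 were not called without WT mouse 1 (adjusted p from 0.0578 to 0.0933, edgeR). Cad, Lig1, Rad54l, Rrm1, Brca2, Tk1, Rrm2, Pola1, Top2a, Mki67 and Rad18 were not called without WT mouse 2 (adjusted p from 0.0848 to 0.185, edgeR). Rad18 was not called without cKO mouse 2 (adjusted p = 0.0812, edgeR).

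The promoters of Mki67, Top2a and Pola1 are shown because they hold the elements these gene classes are known for. In Mki67 (GRCm38.p6, chr7:135716380-135716629, minus strand) and Top2a (chr11:99024190-99024439, minus strand), capitals mark CCAAT boxes and CHR elements (TTTGAA), read on both strands, with 5 and 8 matches. In Pola1 (chrX:93632156-93632405, minus strand), capitals mark 1 E2F site (TTTCGCGC or TTTGGCGC, either strand).
Mki67: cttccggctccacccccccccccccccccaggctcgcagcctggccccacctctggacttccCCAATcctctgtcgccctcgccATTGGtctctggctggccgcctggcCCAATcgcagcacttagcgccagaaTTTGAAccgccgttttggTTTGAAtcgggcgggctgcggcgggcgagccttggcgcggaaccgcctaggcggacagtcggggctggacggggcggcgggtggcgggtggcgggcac
Top2a: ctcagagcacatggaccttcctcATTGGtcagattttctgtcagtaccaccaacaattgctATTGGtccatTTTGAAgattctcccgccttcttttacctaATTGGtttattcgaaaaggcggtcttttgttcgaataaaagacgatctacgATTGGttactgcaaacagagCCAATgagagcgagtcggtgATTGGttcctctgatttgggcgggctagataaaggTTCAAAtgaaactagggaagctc
Pola1: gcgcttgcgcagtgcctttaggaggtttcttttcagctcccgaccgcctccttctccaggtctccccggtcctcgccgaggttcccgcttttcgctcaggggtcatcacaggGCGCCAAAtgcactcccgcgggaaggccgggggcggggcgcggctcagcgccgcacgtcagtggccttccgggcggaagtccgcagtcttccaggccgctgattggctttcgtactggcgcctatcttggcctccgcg
Of 19 spindle genes with a promoter in the table, 89.5% held a CCAAT box and 78.9% a CHR element, against 42.8% and 14.5% of all tested genes with a promoter. Of 17 replication genes, 52.9% held an E2F site, against 1.70% of all. The 225 higher genes as a group had shares of 16.2% for the CHR element and 4.47% for the E2F site, and the lower genes 12.7% and 0 of 181 promoters. The searched letters do not contain one another. A match describes these letters and shows no binding.

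**Figure D4:**
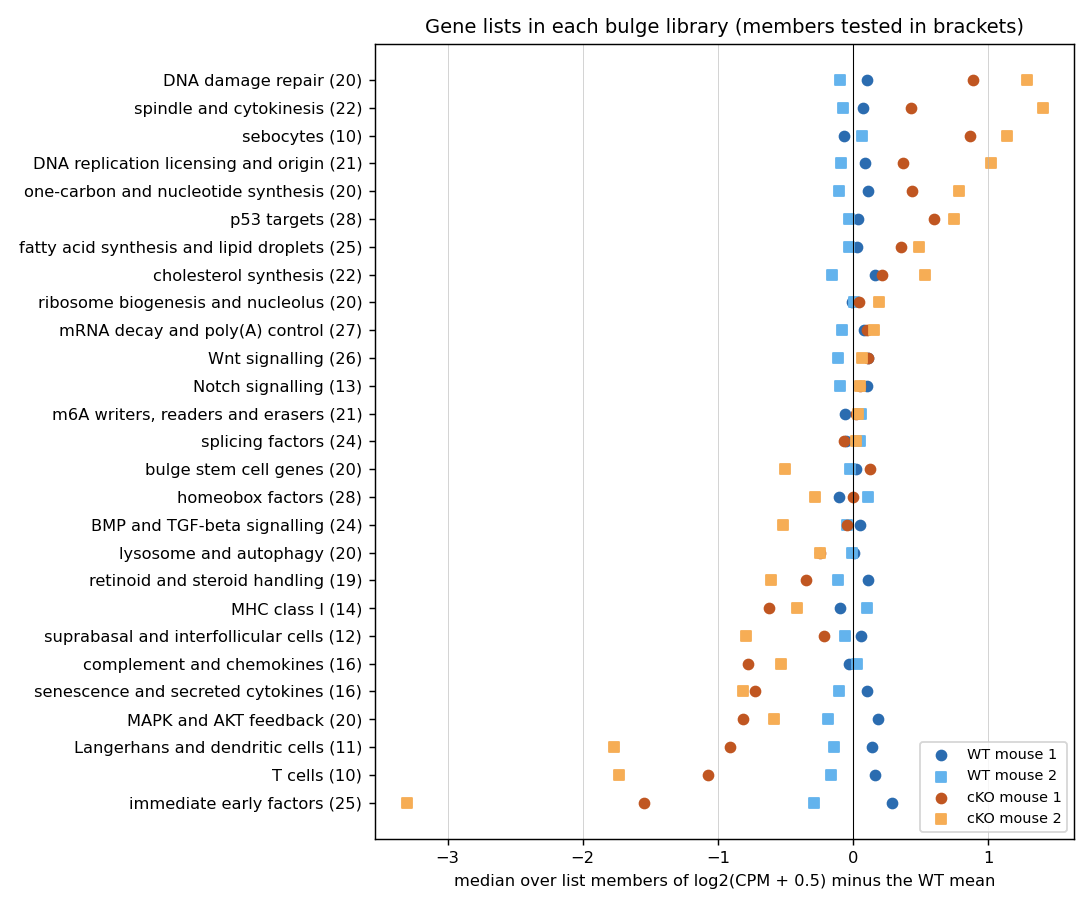
Median level of the tested members of 27 gene lists in each bulge library, as log2(CPM + 0.5) minus the WT mean (horizontal axis), with the number of members tested in brackets. Repair, spindle and p53 lists lie to the right in both cKO mice, immediate early factors lie at -1.55 and -3.30, and for bulge stem cell genes the cKO mice lie on opposite sides of the WT pair at 0.13 and -0.51.

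Among the most abundant higher genes were 2 cyclins and several surface proteins. The D-type cyclins, which open the way into S phase, were led by Ccnd2 with 655 and 476 CPM in WT and 1353 and 1269 CPM in cKO (log2 1.21, adjusted p = 0.0302, edgeR). Ccnd1 had 163 and 118 CPM in WT and 344 and 396 CPM in cKO (log2 1.40, adjusted p = 0.0152, edgeR). Notch1, a receptor that drives differentiation of keratinocytes, had 372 and 236 CPM in WT and 977 and 970.5 CPM in cKO (log2 1.68, adjusted p = 0.0161, edgeR). The cKO mice were nearly equal for Notch1, and WT mouse 1 lay above WT mouse 2 in these 3 genes.
Cd44, a receptor of hyaluronan, had 308 and 279 CPM in WT and 620.1 and 518 CPM in cKO (log2 0.95, adjusted p = 0.0332, edgeR), and Efna3, a membrane-bound ligand of Eph receptors, 114 and 95.1 CPM in WT and 206 and 194 CPM in cKO (log2 0.94, adjusted p = 0.0258, edgeR). Tmem43, a protein of the nuclear envelope, had 253 and 191 CPM in WT and 441 and 529.8 CPM in cKO (log2 1.13, adjusted p = 0.0287, edgeR). Ccnd2, Efna3, Tmem43 and Cd44 were not called without WT mouse 2 (adjusted p from 0.074 to 0.104, edgeR).

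Immediate early factors were the gene list with most lower members. They are transcription factors and signalling genes that are transcribed within minutes of a stimulus. Of 25 tested, 8 were called lower (32%, against 1.6% of all genes lower) and 0 higher, all 25 were negative, and the median log2 fold change was -2.23. Arc, a gene of synaptic plasticity that many stimulated cells transcribe, had 602 and 497 CPM in WT and 31.7 and 6.23 CPM in cKO (log2 -4.87, SE 0.66, adjusted p = 0.0128, edgeR). Nr4a3, an orphan nuclear receptor, had 49.9 and 31.1 CPM in WT and 2.41 and 0.666 CPM in cKO (log2 -4.77, adjusted p = 0.00549, edgeR), and Egr3, a zinc finger factor, 165 and 164 CPM in WT and 47.03 and 32.6 CPM in cKO (log2 -2.05, adjusted p = 0.00374, edgeR). The lowest value belonged to cKO mouse 2 in each.
The AP-1 genes themselves were among the members that did not pass. Fos had 8954 and 5694 CPM in WT and 3064 and 675 CPM in cKO (log2 -1.97, adjusted p = 0.136, edgeR) and Jun 4306 and 2660.4 CPM in WT and 1458 and 325 CPM in cKO (log2 -1.97, adjusted p = 0.134, edgeR). In both, the cKO mice differed from each other by a larger ratio than cKO mouse 1 did from WT mouse 2. The list medians lay at -1.55 in cKO mouse 1 and -3.30 in cKO mouse 2. Leaving out a library gave 5 lower members without WT mouse 1, 6 without WT mouse 2, 23 without cKO mouse 1 and 18 without cKO mouse 2.

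Brakes of the MAPK and AKT pathways, which the same signals induce, were lower too, with list medians of -0.81 and -0.59 in the cKO mice. Of 20 tested, 6 were called lower (30%, against 1.6% of all genes lower) and 0 higher, with a median of -0.70. Dusp5, a nuclear phosphatase of ERK, had 65.02 and 57.4 CPM in WT and 15.97 and 10.2 CPM in cKO (log2 -2.23, SE 0.24, adjusted p = 0.00538, edgeR). Dusp1, a phosphatase of p38, JNK and ERK and the most abundant of them, had 3112 and 2079 CPM in WT and 1021 and 592 CPM in cKO (log2 -1.69, adjusted p = 0.037, edgeR). Errfi1, an inhibitor of the EGF receptor, had 388 and 214 CPM in WT and 105 and 92.5 CPM in cKO (log2 -1.61, adjusted p = 0.026, edgeR). Rgs2, which shortens signals of G proteins, fell by 2.22 on the log2 scale, the pseudokinase Trib1 by 1.94 and Dusp14 by 1.13, with adjusted p of 0.0167, 0.0263 and 0.0258 (edgeR).
Gem, a small GTPase that the same kinds of signal induce, was the lower gene with the lowest p after Alkbh5 among named genes, with 113 and 109 CPM in WT and 23.1 and 16.6 CPM in cKO (log2 -2.48, SE 0.20, adjusted p = 0.00187, edgeR). The ligands of the EGF receptor Areg and Hbegf were lower as well, Areg with 18.1 and 13.9 CPM in WT and 2.04 and 2.47 CPM in cKO (log2 -2.82, adjusted p = 0.00672, edgeR) and Hbegf with 129 and 107 CPM in WT and 39.1 and 18.98 CPM in cKO (log2 -2.03, adjusted p = 0.0202, edgeR).
The promoters of Dusp1 (GRCm38.p6, chr17:26508473-26508722, minus strand) and Errfi1 (chr4:150854820-150855069, plus strand) are shown because each holds the cAMP response element (TGACGTCA, in capitals), to which CREB binds.
Dusp1: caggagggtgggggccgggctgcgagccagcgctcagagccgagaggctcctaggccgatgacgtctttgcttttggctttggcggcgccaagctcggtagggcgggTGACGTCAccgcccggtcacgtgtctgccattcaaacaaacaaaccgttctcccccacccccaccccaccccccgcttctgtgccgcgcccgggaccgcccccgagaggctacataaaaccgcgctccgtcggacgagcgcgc
Errfi1: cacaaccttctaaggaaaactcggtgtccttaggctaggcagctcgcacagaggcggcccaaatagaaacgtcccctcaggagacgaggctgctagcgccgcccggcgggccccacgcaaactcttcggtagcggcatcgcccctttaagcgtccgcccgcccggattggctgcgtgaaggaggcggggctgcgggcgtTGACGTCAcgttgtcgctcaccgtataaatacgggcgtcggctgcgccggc
This element was found in 4 of 15 feedback genes with a promoter in the table (26.7%), in 2 of 20 immediate early factors and in 3.52% of all tested genes with a promoter. Lower genes held it in 4.97% and higher genes in 5.03%, so it did not separate the directions. Trib1, Dusp1 and Dusp14 were not called without WT mouse 1 (adjusted p from 0.0525 to 0.0726, edgeR).

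Several enzymes and carriers of metabolism were among the lower genes with the lowest p. Txnip (ENSMUSG00000038393), which limits glucose uptake and binds thioredoxin, was among the most abundant lower genes, with 3198 and 2405 CPM in WT and 609.6 and 603 CPM in cKO (log2 -2.21, SE 0.22, adjusted p = 0.0041, edgeR). Glul, glutamine synthetase, had 714 and 458 CPM in WT and 91.2 and 74.05 CPM in cKO (log2 -2.83, SE 0.25, adjusted p = 0.00277, edgeR). Pdk4, the kinase that shuts pyruvate dehydrogenase, had 23.6 and 33.9 CPM in WT and 4.15 and 4.04 CPM in cKO (log2 -2.81, adjusted p = 0.0033, edgeR). The cKO mice were almost equal for Txnip and Pdk4. Teddm2, which lies opposite Glul, was called lower too (log2 -2.39).
Angptl4, an inhibitor of lipoprotein lipase, had 13.4 and 50.99 CPM in WT and 4.77 and 4.19 CPM in cKO (log2 -2.84, adjusted p = 0.0442, edgeR). WT mouse 2 was well above WT mouse 1. Hpgd, which breaks down prostaglandins, had 90.8 and 63.4 CPM in WT and 18.2 and 16.5 CPM in cKO (log2 -2.16, adjusted p = 0.00391, edgeR), and Slco2b1, an importer of organic anions, 66.2 and 47.2 CPM in WT and 11.6 and 9.51 CPM in cKO (log2 -2.43, adjusted p = 0.00318, edgeR). The transcription factor Klf11 had a log2 fold change of -1.61, Irs2 of -1.73 and Fbxo32 of -1.17. Irs2, an adaptor of the insulin receptor, and Fbxo32, a ubiquitin ligase of muscle wasting, were named after their values were seen.
Edn2, a vasoactive peptide, had 8.69 and 8.53 CPM in WT and 0.433 and 0.476 CPM in cKO (log2 -4.22, adjusted p = 0.00448, edgeR). Igfbp3 binds insulin-like growth factors. It is itself known as a p53 target and went the other way from most p53 targets, with 794 and 695 CPM in WT and 112 and 65.4 CPM in cKO (log2 -3.07, SE 0.27, adjusted p = 0.0028, edgeR).
Hypoxia genes moved in both directions: of 20 tested, 2 were higher (Plod2 and Car12) and 4 lower (Adm, Bnip3, Slc2a1 and Ndrg1). That is 30% called, against 3.04% of all genes. Slc2a1, the main glucose transporter of skin, had 214 and 190.0 CPM in WT and 102 and 104 CPM in cKO (log2 -0.97, adjusted p = 0.019, edgeR). The vasoactive peptide Adm had 11.6 and 10.2 CPM in WT and 1.11 and 0.428 CPM in cKO (log2 -3.85, adjusted p = 0.0114, edgeR).
Of 20 lysosome and autophagy genes, 4 were lower (20%, against 1.6% of all genes lower) and 0 higher, with a median of -0.24. Ctsl, a lysosomal protease, had 134 and 121 CPM in WT and 61.6 and 54.7 CPM in cKO (log2 -1.13, adjusted p = 0.0128, edgeR), and Map1lc3b, the coat protein of autophagosomes, 343 and 288 CPM in WT and 173 and 167 CPM in cKO (log2 -0.89, adjusted p = 0.031, edgeR). The autophagy gene Gabarapl1 (log2 -0.94) and the cholesterol exporter Npc1 (-0.72) were the other two.
Of 20 genes of the unfolded protein response, 3 were called (15%, against 3.04% of all genes). Of these 1 was higher (Sesn2, log2 1.84) and 2 were lower, Atf4, the factor of the integrated stress response, with 355 and 291 CPM in WT and 145 and 148 CPM in cKO (log2 -1.14, adjusted p = 0.0157, edgeR), and Herpud1 (-1.11). Gabarapl1, Map1lc3b, Herpud1, Ndrg1, Car12, Npc1 and Teddm2 were not called without WT mouse 1 (adjusted p from 0.0509 to 0.0969, edgeR). Npc1, Ndrg1, Car12, Angptl4, Gabarapl1 and Teddm2 were not called without WT mouse 2 (adjusted p from 0.0675 to 0.156, edgeR). Npc1 was not called without cKO mouse 1 (adjusted p = 0.0585, edgeR). Gabarapl1, Npc1 and Car12 were not called without cKO mouse 2 (adjusted p from 0.0637 to 0.11, edgeR).

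Some genes by which epidermal cells signal to immune cells were lower. Ccl27a, a chemokine that keratinocytes make to draw T cells into skin, had 227 and 279.9 CPM in WT and 67.2 and 67.7 CPM in cKO (log2 -1.91, SE 0.17, adjusted p = 0.00264, edgeR). It lies opposite Il11ra1, which was called lower too (log2 -1.10). Of 16 complement and chemokine genes tested, 3 were lower (Ccl27a, Ackr3 and Ccrl2) and 0 higher. Ackr3, a scavenger receptor of the chemokine Cxcl12, had 122 and 102 CPM in WT and 38.99 and 50.8 CPM in cKO (log2 -1.32, adjusted p = 0.0152, edgeR).
The Skint family, through which epidermis selects resident gamma delta T cells, had 5 of 11 tested members lower and 0 higher, against 1.6% of all genes lower, with a median of -1.21. Skint7 had 99.8 and 176 CPM in WT and 25.1 and 28.2 CPM in cKO (log2 -2.37, adjusted p = 0.00684, edgeR), and Skint1, the member first tied to that selection, 63.03 and 90.5 CPM in WT and 31.6 and 26.2 CPM in cKO (log2 -1.41, adjusted p = 0.0191, edgeR). Both were highest in WT mouse 2. The members are close copies, so reads could be shared between them.
Il1r2, a decoy receptor of interleukin 1, had 202 and 181 CPM in WT and 71.97 and 75.8 CPM in cKO (log2 -1.38, adjusted p = 0.00557, edgeR). Irf1, a factor induced by interferon, had 48.4 and 50 CPM in WT and 18.2 and 20.8 CPM in cKO (log2 -1.33, adjusted p = 0.0103, edgeR) and was the 1 lower member of 19 interferon response genes, with 0 higher. H2-T23 was the 1 lower member of 14 MHC class I genes, with a median of -0.52.
Immune cell markers moved with these genes. Of 11 Langerhans and dendritic cell markers tested, 4 were lower (Cd74, H2-Aa, H2-Ab1 and Cd83) and all were negative, with a median of -1.66. Their summed level was 321 and 256 CPM in WT and 132 and 84.7 CPM in cKO. Cd207, which defines Langerhans cells, had 10.6 and 7.89 CPM in WT and 4.64 and 2.33 CPM in cKO and did not pass. Of 10 T cell markers 9 were negative, with a median of -2.14. Cd3e had 5.21 and 3.06 CPM in WT and 0.99 and 0.808 CPM in cKO and did not pass, Cd3g fell (6.08 and 6.90 CPM in WT and 1.55 and 0.618 CPM in cKO) and Thy1, which fibroblasts also express, rose (54.3 and 37.98 CPM in WT and 94.4 and 126 CPM in cKO). With Thy1 the summed level of the T cell markers was 88.1 and 65.1 CPM in WT and 104 and 132 CPM in cKO. Whether these cells had a part in the lower immune genes was not tested. H2-Aa, Ccrl2, H2-Ab1, Cd3g and Cd83 were not called without WT mouse 1 (adjusted p from 0.0549 to 0.123, edgeR). Skint1, H2-T23, H2-Ab1, Thy1, Il11ra1, Cd83 and Cd3g were not called without WT mouse 2 (adjusted p from 0.0524 to 0.18, edgeR).

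Among the most abundant genes that fell were housekeeping genes of translation, chromatin and cytoskeleton. Tpt1, a calcium-binding protein that growing cells make in quantity, had 3129 and 3666 CPM in WT and 1763 and 1657 CPM in cKO (log2 -0.99, adjusted p = 0.0475, edgeR). The ribosomal protein genes had 7 of 98 Rpl and 6 of 86 Rps symbols lower (7.14% and 6.98%, against 1.6% of all genes) and 0 higher, pseudogenes included, with medians of -0.74 and -0.68. Rpl23a had 970.5 and 1171 CPM in WT and 579 and 554 CPM in cKO (log2 -0.92, adjusted p = 0.047, edgeR). These are short genes, in which the size trend above is strongest. With that trend removed, Tpt1 (adjusted p = 0.0529), Rpl23a (0.0881) and Rpl26 (0.0613) were not called (edgeR).
Actb, cytoplasmic actin, had 3309 and 2531 CPM in WT and 1395 and 1158 CPM in cKO (log2 -1.19, adjusted p = 0.0377, edgeR). H3f3b, a replacement histone, had 2162 and 2209 CPM in WT and 1174 and 992 CPM in cKO (log2 -1.01, adjusted p = 0.0418, edgeR). Sfn, a 14-3-3 protein of stratified epithelia and a known p53 target, had 2569 and 1967 CPM in WT and 977 and 764 CPM in cKO (log2 -1.38, adjusted p = 0.026, edgeR), and the small heat shock protein Hspb1 1112 and 794 CPM in WT and 396 and 265 CPM in cKO (log2 -1.53, adjusted p = 0.027, edgeR). Sfn kept its call without any 1 library. Of 12 linker and variant histones, 2 were lower, H3f3b and H1f2 (log2 -2.18), and 0 higher. H3f3b, Tpt1, Rpl26 and Rpl23a were not called without WT mouse 2 (adjusted p from 0.0692 to 0.102, edgeR). Rpl23a and Tpt1 were not called without cKO mouse 1 (adjusted p from 0.075 to 0.108, edgeR). Rpl26, Actb, Rpl23a, H3f3b and Tpt1 were not called without cKO mouse 2 (adjusted p from 0.0756 to 0.214, edgeR).

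Lists of pathways known to govern the hair cycle held from 0 to 4 called members, against 3.04% called of all genes. Of 26 Wnt pathway genes, 1 was higher, the ligand Wnt7a with 1.23 and 0.925 CPM in WT and 13.1 and 13.6 CPM in cKO (log2 3.61, SE 0.35, adjusted p = 0.00383, edgeR), and 0 lower, a share of 3.85%, with a median of 0.06. Of 24 BMP and TGF-beta genes, 4 were called (16.7%). Of these 1 was higher, the receptor Tgfbr2 (log2 1.03), and 3 were lower. These were the ligand Bmp2 with 39.1 and 36.1 CPM in WT and 14.9 and 14.6 CPM in cKO (log2 -1.35, adjusted p = 0.0116, edgeR) and the BMP response genes Id1 with 114 and 132 CPM in WT and 47.2 and 34.9 CPM in cKO (log2 -1.59, adjusted p = 0.00836, edgeR) and Id3 (log2 -1.07).
Of 13 Notch pathway genes, 1 was higher (Notch1, a share of 7.69%), and of 15 Hippo pathway genes, 1 was lower, the co-activator Wwtr1 with 147 and 129 CPM in WT and 80.5 and 76.5 CPM in cKO (log2 -0.82, adjusted p = 0.0332, edgeR). Of 12 Hedgehog genes, 0 were called and 0 had an unadjusted p under 0.05 (edgeR), and 0 were called in DESeq2. Of 19 FGF and EGF ligands and receptors, 2 were lower (Areg and Hbegf) and 0 higher (10.5%).
The matrix and adhesion lists were mixed. Of 26 basement membrane and matrix genes, 1 was lower, Thbs1 with 3029.7 and 1662 CPM in WT and 577 and 229.8 CPM in cKO (log2 -2.54, adjusted p = 0.0332, edgeR), a secreted glycoprotein that activates TGF-beta. Of 22 integrins and adhesion molecules, 2 were higher (Mcam and L1cam) and 1 lower (Epcam). Of 19 proteases and protease inhibitors, 2 were higher (Serpine2 and Timp3), and the secreted protease Adamts9 was among the lower ones with 13.4 and 10.95 CPM in WT and 4.46 and 2.38 CPM in cKO (log2 -1.85, adjusted p = 0.0489, edgeR). Thbs1, Wwtr1, Id3 and Adamts9 were not called without WT mouse 1 (adjusted p from 0.0568 to 0.13, edgeR). L1cam, Id3, Tgfbr2, Timp3, Epcam and Adamts9 were not called without WT mouse 2 (adjusted p from 0.074 to 0.123, edgeR).

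Lipid-making enzymes were higher as single genes. Of 25 genes of fatty acid synthesis and lipid droplets, 4 were higher (Elovl6, Elovl3, Scd1 and Far2) and 0 lower, with a median of 0.42. That is 16% higher, against 1.44% of all genes higher. Elovl6, which extends fatty acids, had 51.1 and 50.4 CPM in WT and 126 and 181 CPM in cKO (log2 1.60, SE 0.20, adjusted p = 0.00907, edgeR). Scd1, which desaturates them, had 212 and 209 CPM in WT and 387 and 563 CPM in cKO (log2 1.18, adjusted p = 0.0288, edgeR). Of 22 cholesterol synthesis genes, 17 were positive, with a median of 0.37.
Sebocyte markers share members with these lists. Of 10 tested, 4 were higher (Elovl3, Soat1, Scd1 and Far2), 40% against the same 1.44%. All were positive, and the summed level of the list was 482 and 389 CPM in WT and 765 and 988 CPM in cKO. The defining sebocyte gene Awat1 was at or under 0.990 CPM in every library, and Mgst1 had 29.6 and 39.97 CPM in WT and 32.9 and 45.1 CPM in cKO. Without WT mouse 2, 0 of the 10 were called. The part of sebaceous cells in the lipid genes was not tested.
Of 23 Nrf2 and glutathione genes, 1 was higher, Txnrd1 (log2 1.27), and 2 were lower, Gstm1 (-1.32) and Nqo1 (-1.13). That is 13.0% called, against 3.04% of all genes. Of 19 clock genes, 2 were higher and 3 lower (26.3% called, against the same 3.04%). The repressors Per2 and Per3 rose, Per3 with 38.03 and 32.8 CPM in WT and 70.9 and 83.7 CPM in cKO (log2 1.13, adjusted p = 0.019, edgeR), and the activator Arntl fell with 41.5 and 47.01 CPM in WT and 25.99 and 23.5 CPM in cKO (log2 -0.84, adjusted p = 0.0465, edgeR). Bhlhe40 (log2 -2.49) and Nfil3 (-2.77), repressors that act on clock genes, fell further. Hours of collection are not given in the labels. Soat1, Elovl3, Scd1, Arntl, Nqo1 and Far2 were not called without WT mouse 1 (adjusted p from 0.054 to 0.107, edgeR). Per3, Far2, Txnrd1, Elovl3, Scd1, Per2, Soat1, Nqo1 and Arntl were not called without WT mouse 2 (adjusted p from 0.0718 to 0.184, edgeR). Arntl was not called without cKO mouse 2 (adjusted p = 0.0812, edgeR).

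Lists of RNA methylation and RNA handling were read against the 3.04% called of all genes, a share at which lists of this size hold few calls or none. Of 21 other m6A writers, readers and erasers tested, 0 were called in edgeR, with 1 at an unadjusted p under 0.05, and 0 in DESeq2, and the median log2 fold change was 0.04. Mettl3, the catalytic writer, had 31.3 and 34 CPM in WT and 33.4 and 33.01 CPM in cKO, and Fto, the other m6A eraser, 82.96 and 59.7 CPM in WT and 77.1 and 74.2 CPM in cKO, each with WT and cKO values that overlapped. The writer partner Wtap (log2 -0.28) and the reader Ythdc2 (0.56) did not pass. Of 24 splicing factors, 0 were called by either tool, with 2 at an unadjusted p under 0.05 in edgeR. Of 27 decay and poly(A) genes, 0 were called in edgeR, with 7 at an unadjusted p under 0.05, and 3 lower in DESeq2. Of 21 other RNA-modifying enzymes, 0 were called by either tool, with 0 at an unadjusted p under 0.05.
Identity genes were largely among those not called. Of 10 hair germ genes, 0 were called in edgeR, with 2 at an unadjusted p under 0.05, and 0 in DESeq2. Of 28 homeobox factors, 0 were called in edgeR, with 2 at an unadjusted p under 0.05, and 2 lower in DESeq2. Of 26 desmosome, claudin and gap junction genes, 0 were called in edgeR, with 7 at an unadjusted p under 0.05, and 2 higher and 3 lower in DESeq2. Of 15 keratins of the basal layer and shaft, Krt7 was higher and 0 were lower in edgeR, with 9 at an unadjusted p under 0.05. Of the 15, 12 were negative, with a median of -0.77, and DESeq2 called 1 higher and 4 lower. Without cKO mouse 1, 6 of the 20 bulge stem cell genes were lower, and without cKO mouse 2 1 was higher.

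Hair germ stem cells, which lie below the bulge and divide first when anagen starts, were measured with the same kit from 40.0 ng of RNA in other libraries of 2 WT and 2 cKO mice of the same age. These libraries held 488648 to 2317407 reads. The genotype effect was compared between the cell types as a difference of log2(CPM + 1) effects over 13508 genes with at least 1 CPM on average in each dataset. For this comparison CPM was scaled to the total of each library, without TMM factors. The test called 0 genes (0.0%) in limma, with 967 at an unadjusted p under 0.05, and edgeR on the whole reads recovered from the hair germ table called 31 of 26135 (0.119%). Of these 31, 24 were genes called in the bulge. Without the hair germ library WT 1, limma called 17 genes, and without bulge WT mouse 1 it called 1. The difference therefore depended on the tool and the library, and the deposited tables were normalized separately.
The 220 higher bulge genes in the fit had a median of 1.55 in the bulge and 0.13 in hair germ, with 128 positive there. For the 245 lower genes the medians were -1.05 and -0.41, with 171 negative there. Over all 13508 genes the median was 0.15 in the bulge and -0.01 in hair germ, where 6640 were positive. The bulge effects without TMM factors thus carry a general upward shift. The bulge medians of the called genes follow from how they were chosen, so the hair germ values are given as a description.
Mcam had 10.6 and 30.7 CPM in WT and 58.3 and 60.4 CPM in cKO in hair germ, and its effect was 5.71 in the bulge and 1.66 in hair germ (adjusted p of the difference = 0.341, limma, and 0.00243, edgeR). Gria3 had 9.25 and 51.2 CPM in WT and 22.9 and 13.8 CPM in cKO, with effects of 5.32 and -0.30 (adjusted p of the difference = 0.341, limma, and 2.01e-06, edgeR). In hair germ the WT and cKO values of Gria3 overlapped and rested on 14 to 35 reads per library.
For other genes the values in both cell types went the same way. Ptp4a3 had 25.8 and 59.3 CPM in WT and 168 and 375 CPM in cKO, effects of 3.72 and 2.65, and Igfbp3 353 and 313 CPM in WT and 72.7 and 32.4 CPM in cKO, effects of -2.93 and -2.75. Ccng1, a p53 target, had 34.4 and 16.4 CPM in WT and 69.5 and 109 CPM in cKO, effects of 1.85 and 1.83. Its hair germ values rested on 52 and 8 reads in WT and 106 and 252 reads in cKO. By contrast, Zmat3 had 35.03 and 65.5 CPM in WT and 53.7 and 53.9 CPM in cKO, effects of 2.12 and 0.16. For these 4 genes the difference of effects did not pass in limma or edgeR, which does not show that the cell types responded alike. Alkbh5 itself had 62.8 and 61.4 CPM in WT and 17.7 and 6.90 CPM in cKO in hair germ, from 16 to 95 reads per library. Its effect was -4.46 in the bulge and -2.38 in hair germ (adjusted p of the difference = 0.687, limma, and 0.0418, edgeR), so the loss of the targeted gene was smaller in hair germ by the edgeR test, and every hair germ effect above stands beside that value.

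**Figure D5:**
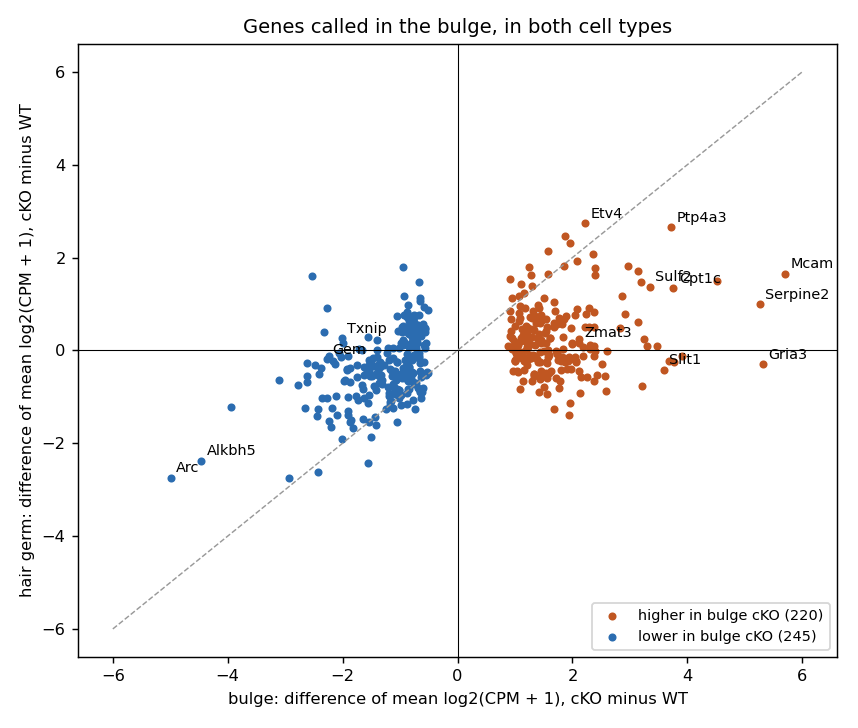
Genotype effect of each gene called in the bulge, as the difference of mean log2(CPM + 1) between cKO and WT, in bulge (horizontal axis) and hair germ (vertical axis), with the line of equal effects dashed. CPM is without TMM factors here. Orange points (220 genes higher in the bulge) lie around 0 in hair germ with a median of 0.13, and blue points (245 lower genes) have a median of -0.41. Ptp4a3, Etv4, Alkbh5 and Arc lie away from 0 on both axes and Gria3 and Slit1 on the bulge axis.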

How the data were processed

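Gene-level read counts of 4 bulge libraries (2 WT and 2 Alkbh5 cKO mice) were used as the authors deposited them, with FPKM values beside them. The deposited FPKM were recomputed from counts and exonic sizes and differed by at most 0.495%. Per the submitters' processing notes, STAR, featureCounts and DESeq2 were among the tools and GRCm38 and mm10 the builds, with no roles or versions, and strand use is not given in the sources used here. The hair germ table holds values the authors deposited as a normalized signal (counts scaled by 1 size factor for each library), where counts had been planned for. They were turned into CPM, and whole reads were recovered for 100% of values (tolerance 0.01 reads). Its columns name the genotype and a number but not the labelled mouse.

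Counts were fitted with edgeR 4.0.16 (quasi-likelihood, TMM scaling, filterByExpr) in R 4.3.3, with Benjamini-Hochberg adjustment at 0.05 and no replicate block. The labels tie same-numbered mice by a number only. The correlation of their deviations over 15672 genes was -0.07, which cannot show whether they were littermates or handled together. Adjusted p-values and log2 fold changes are from these fits and none is an authors' value. The difference between cell types was fitted with limma 3.58.1 on log2(CPM + 1), with CPM from library totals and no TMM factors. Alternatives were DESeq2 1.42.0, other scalings, no filter, the block, a 2-fold threshold, single libraries left out and, added after the data were seen, an offset for exonic size. The fits were tested on simulated data. Of 56691 gene IDs, 54052 were named by the table. Promoter sequences are from RefSeq (GRCm38.p6), matched by symbol for 10898 of 15661 tested symbols.

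The members and the 64 gene lists were chosen with earlier results of these data known. Lists are described by counts and medians, without a test. Named genes were Alkbh5, the 20 called genes with the lowest p and the 15 with the largest fold change in each direction (at least 5 CPM in the higher group), the 10 most abundant called genes in each direction, and per list up to 6 called and 2 uncalled members with the lowest p. Named outside this rule, with their values seen, were 2410006H16Rik, Aldh3a1, Ces2e, Ces2g, Dhh, Etv4, Fbxo32, Gm10687, Il11ra1, Irs2, Mdm2, Rad18, Rev1, Skint1, Teddm2, markers of cell types and the uncalled genes Bax, Bbc3, Btg2, Fas, Fos, Fto, Jun, Mettl3, Perp and Pmaip1. Some called genes that the rule names are not reported here. The hair germ SMART-seq, IP and input libraries were not used here.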

Additional observations from a re-analysis of the deposited data

How the results depend on the processing

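Each of the 476 calls kept its sign under every alternative that refitted the bulge libraries. Their WT and cKO values did not overlap, so leaving out a library could not turn a sign. What moved was the number past the threshold. It was 1549 of 26954 genes without a filter on low counts (728 higher, 821 lower) and 1191 in DESeq2 (570 higher, 621 lower), of which 476 and 472 of the original calls were part. It was 63 against a 2-fold threshold (39 higher, 24 lower), 84 at an adjusted p of 0.01 (50 higher, 34 lower) and 1012 at 0.1 (460 higher, 552 lower). With 1 library left out, it ranged from 218 without WT mouse 2 to 1601 without cKO mouse 1 (72 to 788 higher, 146 to 813 lower). The cause of these moves was not tested. The replicate block gave 506 calls (206 higher, 300 lower), 409 of them shared, and removed Mki67 (adjusted p = 0.0595) and Top2a (adjusted p = 0.0502, edgeR). DESeq2 size factors and upper quartile scaling within edgeR gave 529 and 560 calls. Of 166 named called genes besides Alkbh5, the number that lost their call was 1 in DESeq2, 11 with the block, 22 with the exonic size trend removed, and 42, 66, 6 and 13 without WT mouse 1, WT mouse 2, cKO mouse 1 and cKO mouse 2, and 0 with another scaling or no filter. Medians of the 64 lists moved by more than the spread between mice in 17 to 25 lists when 1 library was left out and in 8 with the size trend removed. The number of genes whose effect differed between bulge and hair germ was 0 in limma, 31 in edgeR on whole reads, and from 0 to 17 with 1 library left out. Called genes near Alkbh5 numbered 1 within 1 Mb and 2 Mb and 12 of 260 within 10 Mb. With 2 mice per genotype, and WT mouse 2 the only male of the bulge mice, sex and individual differences cannot be told apart from part of the genotype effect. The shallowest hair germ library (488648 reads) limits what could be detected in hair germ.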
